A study of Mus musculus with 42 samples.

Results

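Granzyme-high tissue-resident NK cells (trNK) with little Scin, Epas1 and Ctsg were described here among single cells from mouse uterus. A cell was a member when it held at least 10 UMIs (unique molecular identifiers, 1 per captured RNA molecule) of Gzmd, Gzme, Gzmf and Gzmg together and at least 1 of Ncr1, Klrb1c, Eomes and Itga1. It also held at most 1 UMI of Scin, Epas1 and Ctsg, none of Cd3e, at most 2 of C1qa, C1qb and C1qc, and under 5 of the mitosis genes Mki67, Top2a, Birc5, Ube2c and Ccna2. Of 15175 cells, 13084 had a mitochondrial UMI share under 10%, and 2303 of these were members, 17.6% with an exact binomial interval of 16.95% to 18.27%. The granzyme step left 6248 cells, the NK, T and macrophage steps 5670, the mitosis step 4419 and the Scin step 2303. The gate used measured values, so levels of its own genes are given as a description.

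The single cells were live CD45+NK1.1+NKp46+ lymphocytes of wild-type C57BL/6 females aged 8 to 12 weeks, sorted from the pooled uteri of 5 virgin mice and of 2 mice at gestational day (gd) 8.5. Bulk RNA-seq with 2 libraries per group came from the same strain. Uterine CD45+NK1.1+NKp46+CD49a+CXCR6- cells at gd8.5 were sorted as CD55 low 4-1BB low (trNK-V), intermediate (trNK-D) or high (trNK-T), and other libraries held uterine trNK taken from virgin mice or at gd6.5 or gd8.5. In culture, trNK-V cells of gd6.5 mice were kept for 3 days in medium that the methods give with 10 ng/mL IL-15, without further agent, with 20 ng/mL IL-21, or with IL-21 and 1 µM Stattic, a STAT3 inhibitor (the label's dose; the methods print the same number in mM). Nothing stated whether the 2 libraries of a group came from separate mice, so p-values measured only the spread between these libraries.

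The labels name one count file virgin and the other gd8.5. Both files listed the same 15175 cell numbers in the same order but no gene was in both, 6821 being in the smaller file and 28416 in the larger. Joining gave 1 set of cells, in which virgin and gd8.5 cells cannot be told apart and no test between groups of cells was possible. Intervals on single-cell values cover counting error only. Doublets were not called.

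Natural killer cells are innate lymphocytes that store perforin and granzymes in cytotoxic granules. Perforin opens the target membrane and granzymes, a family of serine proteases, cleave proteins inside the target. In the mouse, Gzmb, Gzmc, Gzmd, Gzme, Gzmf and Gzmg lie in one cluster of closely related genes, and uterine NK cells are known for their granules and for a part in remodelling the decidual arteries. Uterine trNK carry CD49a, the product of Itga1, and express the T-box factor Eomes.

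The 4 granzyme genes of the gate and their neighbour Gzmc, which is outside it, were shown by their proximal promoters, because the genes are near copies and their reads can be split between them. The windows below were read from RefSeq on GRCm38.p6, on the minus strand of chromosome 14, 5′ to 3′. Capitals mark the word TGACGTCA, the core of the cAMP response element, or the letters aligned to it.
Gzmc, chr14:56234668-56234722: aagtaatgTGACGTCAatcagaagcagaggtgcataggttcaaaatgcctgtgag
Gzmd, chr14:56132608-56132662: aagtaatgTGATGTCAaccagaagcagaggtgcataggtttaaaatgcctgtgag
Gzme, chr14:56120641-56120695: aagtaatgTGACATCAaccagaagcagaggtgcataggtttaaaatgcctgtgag
Gzmf, chr14:56211443-56211497: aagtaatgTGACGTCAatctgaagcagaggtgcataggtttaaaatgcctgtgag
Gzmg, chr14:56159610-56159664: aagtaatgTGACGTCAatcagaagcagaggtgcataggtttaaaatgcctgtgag
Any pair of these windows was identical at 94.55% to 98.18% of 55 bases. The word, which reads the same on both strands, was sought only upstream of each gene's start. It was in that part of 508 of 32851 promoters (1.546%). It was in 6 of 135 promoters of genes higher in the members than in granzyme-low trNK and in 2 of 68 of those lower, in 3 of 127 of genes higher than in Scin-high cells and in 0 of 51 of those lower. A match is a description of the letters and not a bound site.

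Members held a median of 6313 UMIs (quartiles 3808 and 9138) and 2219 genes. Gzmd to Gzmg made up 2.636% of their UMIs, and the number of these granzyme UMIs per cell ran from 10 through a median of 73 to 1803. Summed over members, and as CPM (UMIs scaled to a total of 1000000), Gzmf stood at 11508, Gzmd at 9289, Gzme at 3576 and Gzmg at 1983. These 4 were the gate, and the members differed widely among themselves in them.

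Among the gate's own NK genes, which the rule required and which check nothing, summed levels were 336 CPM for Itga1, 382 for Eomes, 382.5 for Ncr1 and 336 for Klrb1c, and 1260 members held both Itga1 and Eomes. The labelled identity was then checked against marker lists of other cells. The list of 10 conventional NK markers summed to 1162 CPM, of which Klra8 made up 825 and Itga2 14.5, and 682 members (29.61%) held at least 10 UMIs of it. The 8 ILC1 markers summed to 74.5 CPM, with Cd3g at 40.2 and Cxcr6 at 3.22. Summed macrophage markers stood at 101 CPM against 13658 in macrophage-like cells, and summed B cell markers at 502 CPM against 32713 in B-like cells. At least 10 UMIs of B cell markers were found in 78 members (3.387%) and at least 10 of macrophage markers in 9 (0.3908%). The 7 T cell markers summed to 349.6 CPM, of which Trbc2 made up 262, and 122 members (5.297%) held at least 10 UMIs of them. The 7 mast cell markers summed to 37.5 CPM, with Kit at 18.2 and Tpsab1 at 0.

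Granzyme RNA was also counted in cells that should lack it. B-like cells (214 cells, Cd79a, Cd79b and Ms4a1) had a median of 1748 UMIs and gave 0.193% of them to the 4 granzymes, and macrophage-like cells (608 cells, C1q genes) had 3089 UMIs and gave 0.1232%. At least 10 granzyme UMIs were found in 15 B-like (7.009%) and 48 macrophage-like cells (7.895%). The 95th percentile of macrophage-like cells was a granzyme level of 4556 CPM, and 453 members (19.67%) were at or below it. That of B-like cells was 5933 CPM, with 604 members (26.23%) at or below it.

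**Figure D1:**
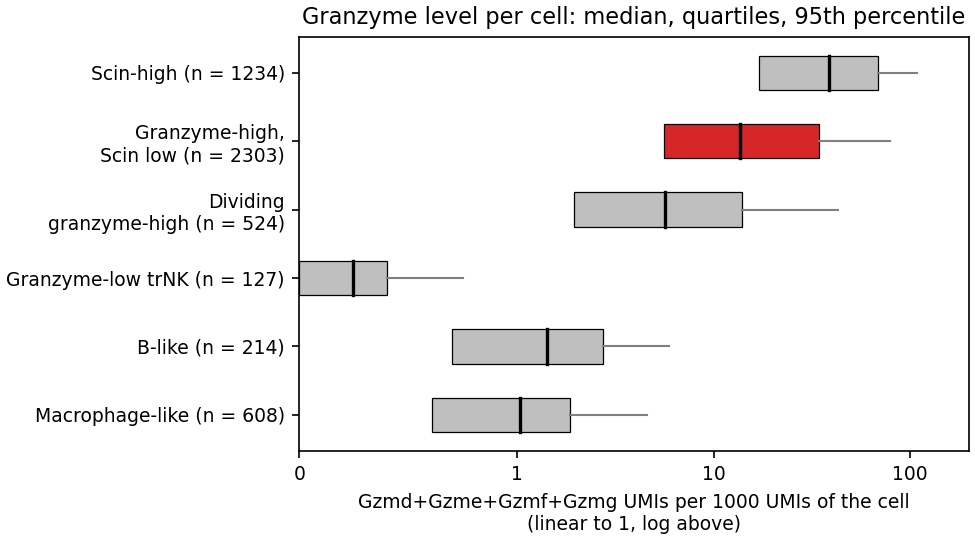
Granzyme level per cell (UMIs of Gzmd, Gzme, Gzmf and Gzmg per 1000 UMIs of the cell; linear to 1, log above) in 6 groups of cells, as median line, quartile box and a line to the 95th percentile. The members' median of 13669 CPM lies above the 95th percentile of macrophage-like cells (4556 CPM) and below the median of Scin-high cells (38766 CPM), and the members overlap both groups (CPM is 1000 times the axis value).

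Granzyme-low trNK were taken as the nearest reference: at most 1 UMI of the 4 granzymes, at least 1 each of Itga1 and Eomes, and the other limits as for members. There were 127 such cells, with a median of 2563 UMIs. Their granzyme share of 0.02222% was below that of B-like and macrophage-like cells, and the limit of 1 UMI is itself part of their gate. A gene was counted as past 2-fold when its CPM ratio was at least 2 with at least 50 CPM and 100 UMIs in the higher group. Among genes outside the gate, 140 of 3111 were higher in members (4.5%) and 68 of 574 lower (11.8%), over a median log2 ratio of -0.005. Scaled instead by the median ratio over 3775 genes, a median of -0.13 log2, these were 219 and 57. A mitochondrial share under 1% was found in 475 members (20.63%) and in none of the 127 granzyme-low cells. With only cells of a share of 1% to 10%, 131 genes were higher and 56 lower, and 111 and 56 of these were among the first counts. The gate chose these cells, so the counts are a description. Members hold 15848543 UMIs in all and granzyme-low trNK 382547, so a gene passed the minimum of 100 UMIs more easily where it was high in members. Counts within lists are read with that limit. A list counted genes that met the minimum in either group. The share lower over all genes is of the 574 that met it in granzyme-low trNK, so its base is not that of the lists. With granzyme-low trNK defined by a granzyme level under 2000 CPM in place of at most 1 UMI, 41 genes were higher and 148 lower.

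Other granule genes were higher in the members beside the gated ones. Gzmc stood at 7706 CPM against 1433, a ratio of 5.38 (95% 4.95 to 5.86), and Gzmb, the main apoptosis-inducing granzyme, at 10918 against 5422, a ratio of 2.01. Prf1, which encodes perforin, stood at 1468 against 578, a ratio of 2.54. Of 18 granule genes that could be counted, these 3 were past 2-fold higher and Ctsw, a granule cathepsin, was lower at 442.5 against 957 CPM. Over all genes, 4.5% of 3111 that met the minimum in members were higher. Of 574 that met it in granzyme-low trNK, 11.8% were lower, which is another base than the 18. Gzma did not pass, at 2022 against 1778 CPM. With each cell thinned to 1500 UMIs (2172 members kept, 131 shallower ones left out), Prf1 was found in 73.2% of members, 50.9% of granzyme-low trNK, 11.4% of B-like and 12.4% of macrophage-like cells. Without thinning the share of members was 91.71%.

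The 10 highest ratios were those of Il2ra, Zbtb32, Ccl1, Myo10, Hbb-bt, Alox5, Havcr2, Hba-a1, Ifitm1 and Myb. Il2ra, the alpha chain of the IL-2 receptor, stood at 117 CPM against 5.23, a ratio of 17.9 with a counting interval of 6.18 to 185. Zbtb32, a zinc finger repressor of lymphocytes, stood at 113 against 5.23, with an interval on its ratio of 6.00 to 179. Both genes had 2 UMIs in the granzyme-low cells. Ccl1, a chemokine, stood at 198 against 10.5 CPM, and Ifitm1, an interferon-induced membrane protein, at 728 against 73.2. Havcr2, the checkpoint receptor TIM-3, and Alox5, the lipoxygenase of leukotriene synthesis, each stood at 58.6 against 2.61 CPM. The levels of Ccl1, Havcr2 and Alox5 in granzyme-low trNK also rest on very few UMIs, so these ratios are rough.

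Both genes on whose products the study sorted its subsets were higher as well. Tnfrsf9, which encodes 4-1BB, stood at 1603 CPM against 510 and Cd55, the complement regulator, at 396 against 149. Klrg1, an inhibitory receptor of mature NK cells, stood at 526 against 191 and Spp1, which encodes osteopontin, at 2463 against 693. Tnfrsf9, Cd55, Klrg1 and Il2ra are 4 of 8 surface molecules that the study follows along trNK differentiation. The other 4 had under 100 UMIs in granzyme-low trNK, so only genes high in members could be counted, and they stood lower in members: Il10rb at 40.9 against 201 CPM, Itgam at 24.4 against 136, Cd27 at 7.70 against 34.0 and Il21r at 29.4 against 118. None of 18 genes of the endoplasmic reticulum stress and folding list was lower, but those with under 100 UMIs in granzyme-low trNK could not be. Past 2-fold higher were 7 of the 18, beside 4.5% of all genes counted in members. They included the chaperones Calr at 2049 against 792 CPM and Hsp90b1 at 1690 against 690, whereas Hspa5 missed the fold at 1908 against 1166. In glycolysis, Ldha stood at 636 against 267 and Eno1 at 545 against 243, 2 of 9 genes. None of 8 homing or 6 replication genes passed in either direction, and of 13 transcription factors 1, Nr4a1, was lower. Genes of these lists with under 100 UMIs in granzyme-low trNK could not be counted as lower, so the lists are not read as unchanged.

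Of 6 secreted factors that could be counted, 3 were past 2-fold lower and 2 higher. Over all genes these shares were 11.8% of 574 and 4.5% of 3111, each on its own base. Cd7, a lymphocyte surface protein, stood at 273 CPM against 1848, 6.78-fold lower, and Ccl5 at 399 against 2515, 6.31-fold lower. Xcl1, a chemokine that draws dendritic cells, stood at 374 against 1589, 4.26-fold lower. Itgax, the CD11c integrin, stood at 165 against 962. Thinned to 1500 UMIs, Xcl1 was found in 23.3% of members and 71.8% of granzyme-low trNK, against 5.71% of B-like and 3.39% of macrophage-like cells.

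Of 18 NK receptor genes, 5 were past 2-fold lower and 2 higher, beside 11.8% of 574 and 4.5% of 3111 genes, each on its own base. The lower ones included Klra4 at 339 against 1140 CPM, Klra8 at 825 against 2329 and Klrk1, which encodes NKG2D, at 222 against 706. The Klra genes are near copies, so their reads may be split. Of 15 heat shock and immediate early genes 6 were lower, with Fos at 138 against 617 CPM. The nuclear receptor Nr4a1 stood at 91.9 against 342. Il21r, the IL-21 receptor, had 45 UMIs in granzyme-low trNK, under the minimum of 100, and stood at 29.4 CPM against 118, with 131 in B-like and 82.2 in macrophage-like cells. Its partner in signalling Stat3 stood at 234 against 251.

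Markers of other cells moved with some of these genes. The erythroid list summed to 411 CPM in members against 39.2 in granzyme-low trNK and the stromal list to 210 against 39.2. At least 10 UMIs of the erythroid list were found in 9 members (0.3908%) and of the stromal list in 15 (0.6513%). Hba-a1, a haemoglobin chain, and Col1a1, a collagen of stromal cells, were among the called genes, and macrophage-like cells held 1739 CPM of Hba-a1. Hba-a1 turned to the opposite direction, at -2.18 log2, with granzyme-low trNK chosen by Itga1 and at least 1 UMI of Ncr1, Klrb1c and Eomes together. Their part in the other differences was not tested. The T cell list stood at 349.6 against 489 CPM and the macrophage list at 101 against 102. The conventional NK list stood at 1162 against 2959 CPM, with at least 10 UMIs in 29.61% of members and 44.09% of granzyme-low trNK, and the ILC1 list at 74.5 against 298.

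The members were divided into 4 groups of near equal size, Q1 to Q4, by granzyme level, with median CPM of 3200, 8680, 21851 and 56446 and median depths of 6434, 5284, 6461 and 6977 UMIs. The highest level in Q1 was 5609 CPM, under the 95th percentile of B-like cells (5933 CPM). By granzyme level alone, Q1 cannot be told from cells that should lack these RNAs. Spp1 ran from 1229 CPM in Q1 through 1414 and 2230 to 4536 in Q4. Prf1 ran from 905 to 2229 CPM, Calr from 1207 to 3302 and Cd55 from 187 to 683. Gzmb ran from 9688 to 11526 CPM and Gzmc from 4504 to 11070.

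Several genes ran the other way from Q1 to Q4. Xcl1 stood at 932, 389, 159 and 66.4 CPM and Ccl5 at 863.5, 598, 139 and 74.9. Tcf7, a factor of early lymphocytes, went from 52.2 to 4.67 CPM and Il21r from 50.2 to 14.9. The 68 genes lower than in granzyme-low trNK summed to 21366 CPM in Q1 and 11254 in Q4, against 44844 in granzyme-low trNK. Ccl1 followed neither course, at 205, 210.5, 171 and 207 CPM, nor did the nucleotide receptor gene P2ry14, at 75.8, 69.2, 87.0 and 75.5. Hba-a1 was highest in Q1, with 531 CPM against 14.7 in Q4, as was Col1a1, with 216 against 9.77.

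**Figure D2:**
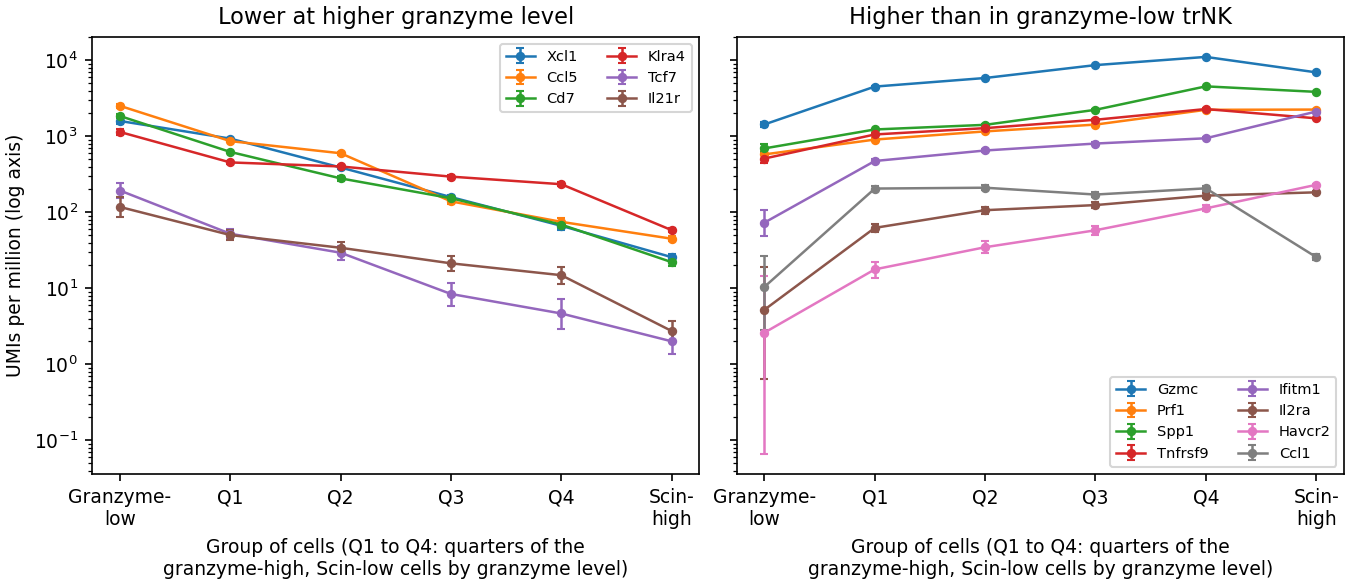
Level (CPM, log axis, bars are 95% Poisson intervals for counting error) of 6 genes that were lower at higher granzyme level and 8 that were higher than in granzyme-low trNK, in granzyme-low trNK, groups Q1 to Q4 of the members and Scin-high cells. Xcl1 falls from 932 to 66.4 from Q1 to Q4, Spp1 goes from 1229 to 4536, and Ccl1 stays between 171 and 210.5. All of Q1 has a granzyme level under the 95th percentile of B-like cells.

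Scin-high cells passed the same gate with at least 5 UMIs of Scin, Epas1 and Ctsg. There were 1234, with a median of 10657 UMIs and 5.092% of UMIs in the 4 granzymes. Among genes outside the gate, 115 of 3111 were past 2-fold higher in members (3.7%) and 51 of 2988 lower (1.71%). Among cells of 2000 to 6000 UMIs only, 839 members and 138 Scin-high cells, these were 539 and 101. They held 113 of the 115 and 28 of the 51 genes. Other marker lists moved with the comparison: conventional NK at 1162 against 374 CPM, ILC1 at 74.5 against 14.1, stromal at 210 against 18.3, with Col1a1 among the called genes, and erythroid at 411 against 161. The B cell list stood at 502 against 308 CPM, with Cd74 and H2-Aa among the called genes. T cell markers stood at 349.6 against 270 and macrophage markers at 101 against 53.4. The part of these lists in the comparison was not tested. The members held more chemokine RNA: Xcl1 stood at 374 against 25.7 CPM, 14.5-fold higher, Ccl5 at 399 against 44.9 and Ccl1 at 198 against 25.8, 7.68-fold higher (95% 6.91 to 8.57). The Xcl1 and Ccl5 differences were smaller at a high granzyme level: with only the members of the highest granzyme group, the log2 ratio over Scin-high cells was 1.38 for Xcl1 and 0.74 for Ccl5. In that group 62 of the 115 and 28 of the 51 genes were still past 2-fold. P2ry14 stood at 77.2 against 7.77 CPM, with 39.2 in granzyme-low trNK. Lck, the kinase next to lymphocyte receptors, stood at 241 against 28.9.

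Of 18 NK receptor genes, 7 were past 2-fold higher in members than in Scin-high cells, with Klrd1, which encodes CD94, at 660 against 195 CPM and Klra4 at 339 against 58.2, and 1, Havcr2, was lower, at 58.6 against 230. Over all genes counted, 3.7% were higher and 1.71% lower. Tbx21, which encodes T-bet, stood at 68.3 against 20.2. The lower genes included Mt2, a metallothionein, at 377 against 1834 CPM, Basp1 at 95.6 against 629, Ifitm1 at 728 against 2116 and Tdrd9 at 4.73 against 70.5. None of the 18 folding genes was past 2-fold either way, and Hspa5 stood at 1908 against 1909 CPM. Within each range of mitochondrial share, Hspa5 was lower in members. It stood at 822 against 977 CPM under 1%, and at 2177 against 2871 at 1% to 10%. Of 19 granule genes counted, 1, Ctsw, was past 2-fold higher in members, at a ratio of 2.78, and 0 were lower. Gzmn, a granzyme outside that list, was past 2-fold lower, at a ratio of 0.341. Gzmb stood at 10918 against 7124 CPM, Prf1 at 1468 against 2246 and Gzmc at 7706 against 6933, and none of these was past 2-fold. Gzmc turned direction among cells with a mitochondrial share of 1% to 10%, at 8631 against 10228 CPM. In those cells Gzmb stood at 12380 against 10690 CPM and Prf1 at 1599 against 2883.

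Both groups held cells with almost no mitochondrial RNA. A share under 1% was found in 475 members (20.63%) and in 787 Scin-high cells (63.78%), so the comparison was repeated on cells with 1% to 10% in both groups. There, 97 genes were past 2-fold higher and 35 lower. All 115 and 51 genes kept their direction, and 83 and 29 of them were still past 2-fold. Xcl1 was 12.9-fold higher and Ccl1 7.78-fold higher in members, and Mt2 was 4.50-fold and Basp1 5.57-fold higher in Scin-high cells.

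**Figure D3:**
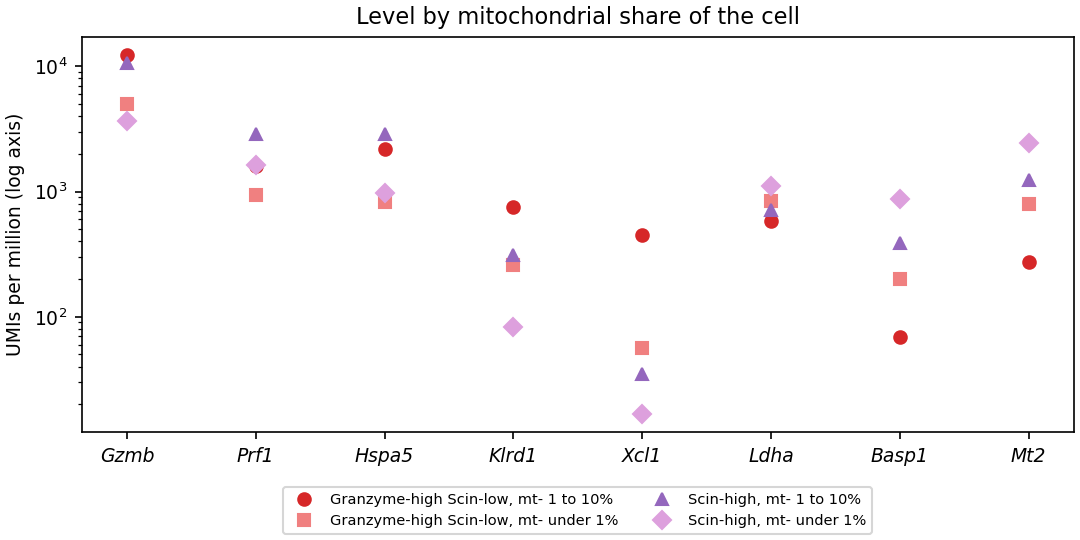
Level (CPM, log axis) of 8 genes in members and Scin-high cells, each split at a mitochondrial UMI share of 1%. Xcl1 is higher and Mt2 and Basp1 are lower in members than in Scin-high cells within both ranges of the share.

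Cells just inside and just outside the gate were set side by side. The 249 members with 10 to 12 granzyme UMIs held 7787 CPM of Gzmb and 1225 of Xcl1, and the 544 cells with 7 to 9 held 6904 and 1463. The 601 members with 1 UMI of Scin, Epas1 and Ctsg held 954 CPM of Ifitm1 against 1457 in the 382 cells with 2. Dividing granzyme-high cells, 524 in number with the mitosis genes at 5 or more, held 8601 CPM of Gzmb and 131.6 of Ccl5, with Xcl1 at 630.

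The genes that differed between the members and either reference were then followed in the sorted gd8.5 subsets, whose libraries did not enter the ratios. The members were chosen with earlier results of these data known, so the subsets are not an independent test. The lists against granzyme-low trNK were not chosen to separate the members from Scin-high cells: the 140 higher genes summed to 59052 CPM in Scin-high cells, within the 37395 to 60981 of the members' groups Q1 to Q4, and the 68 lower ones to 5922.5, below all 4 groups. Values are RPKM, reads per kilobase of gene and 1000000 counts, in library 1 and library 2 of each subset. In bulk samples, fewer cells of a type and less RNA per cell cannot be told apart. 4-1BB and CD55 were sorted on, so their genes Tnfrsf9 and Cd55 are no finding here. Both genes are in the list higher than in granzyme-low trNK, so the counts and medians of that list are not free of the sort.

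All 4 gated granzymes were higher in trNK-T than in trNK-V. Gzme stood at 46.6 and 65.5 in trNK-V, 353 and 325 in trNK-D, and 3503 and 4379 in trNK-T. The 3 subsets did not overlap, and Gzme was higher in trNK-D than in trNK-V by 2.61 log2 (SE 0.23, edgeR adjusted p = 0.0218) and in trNK-T than in trNK-D by 3.53 (SE 0.24, edgeR adjusted p = 0.00516). Gzmd stood at 7.46 and 147, at 733 and 464, and at 4868 and 5865; trNK-D exceeded trNK-V by 2.95 log2 without passing the test (SE 1.11, edgeR adjusted p = 0.222), and trNK-T exceeded trNK-V by 6.11 (SE 1.29, edgeR adjusted p = 0.0154). The pair of trNK-V libraries lay far apart in Gzmd, Gzmf and Gzmg. Gzmg stood at 0.285 and 78.7 in trNK-V and 38.3 and 22.9 in trNK-D, which overlapped, and at 1580 and 2164 in trNK-T.

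Scin and Ctsg, limited in the members, separated trNK-T. Ctsg had no count in trNK-V or trNK-D and 77.3 and 62.4 RPKM in trNK-T, at least 492.8-fold over trNK-D on a floor of 3 counts per library. Scin stood at 2.23 and 4.51 in trNK-V, 18.0 and 11.3 in trNK-D, and 62.3 and 85.8 in trNK-T.

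Between trNK-D and trNK-V, 6 of 114 tested genes from the list higher than in granzyme-low trNK were higher (5.263%, against 0.256% of all genes), and 108 of 114 had a positive difference, with a median of 0.67 log2 against 0.01 over all genes. They were Zbtb32, Mt1, Gzmc, AA467197, Dixdc1 and Spp1. Gzmc stood at 812.5 and 699 in trNK-V and 4347 and 6747 in trNK-D, a difference of 2.89 log2 (SE 0.28, edgeR adjusted p = 0.0243). Spp1 stood at 1185.5 and 903 against 5540 and 4413, a difference of 2.26 (SE 0.20, edgeR adjusted p = 0.0218). Of 66 tested genes from the lower list, edgeR called 0 (0.0641% of all genes), 32 had an unadjusted p under 0.05, and DESeq2 called 7 and limma-voom 1. Of those 66, 64 had a negative difference, with a median of -0.77 log2. A gene that passed the RPKM minimum only through the subset where it is high had to differ there, so the shares called, signs and medians over a list in the bulk groups are a description, although the share over all genes stands beside them. From trNK-V to trNK-D, ILC1 markers ran from 192 and 265.5 RPKM to 58.7 and 68.3 and T cell markers from 532 and 588 to 399 and 394. Conventional NK markers ran from 906 and 1378 to 855 and 621. Macrophage markers stood at 55.8 and 382 in trNK-V and at 273 and 392 in trNK-D. The part of these markers was not tested. The 6 calls became 0 without trNK-V library 1, 2 without trNK-V library 2, 1 without trNK-D library 2, and 4 without either trNK-T library.

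Between trNK-T and trNK-V, 82 of the 114 were higher (71.93%, against 8.05% of all genes, median 1.35 log2). Among them, Ccl1 passed the RPKM minimum through trNK-T alone. The list holds Tnfrsf9 and Cd55, whose products the sort used. Of the 66, 60 were lower (90.91%, against 13.1%; median -2.07 log2), and those not called were Pnrc1, Fgl2, Rgs2, Vim, Dusp1 and Ccl5. Xcl1 stood at 1732 and 1699 in trNK-V, 1080 and 903 in trNK-D and 253 and 218 in trNK-T, lower in trNK-T than in trNK-V by 2.86 log2 (edgeR adjusted p = 0.000571). Without trNK-T library 2, 47 genes were called higher and 37 lower, and without trNK-V library 2, 36 were called lower. Il21r stood at 49.0 and 53.2, at 50.8 and 32.8, and at 13.9 and 6.72. Of 19 folding genes tested, 14 were higher in trNK-T than in trNK-V and 1 lower. Both comparisons use the trNK-V libraries. Summed macrophage markers ran from 55.8 and 382 RPKM in trNK-V to 29.4 and 27.0 in trNK-T, with 2 of 3 tested genes called lower. Summed B cell markers ran from 731 and 576 to 203 and 175, with 2 of 4. Conventional NK markers ran from 906 and 1378 to 401 and 309, with 3 of 4 tested genes called lower, and ILC1 markers from 192 and 265.5 to 19.4 and 15.3, with 2 of 2. T cell markers ran from 532 and 588 to 387 and 245, with 3 of 4 tested genes called lower. Their part in the result was not tested.

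**Figure D4:**
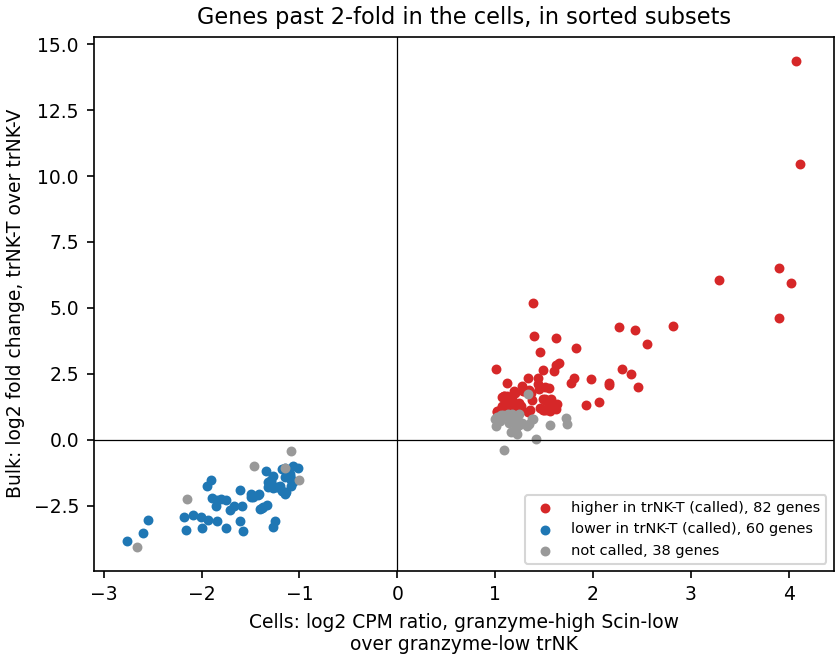
Log2 ratio in cells, members over granzyme-low trNK (x axis), and log2 fold change in bulk, trNK-T over trNK-V (y axis), 1 point per gene past 2-fold in the cells and tested in bulk. The 82 red genes were called higher and the 60 blue genes lower in trNK-T, and grey genes were not called. The genes plotted include Tnfrsf9 and Cd55, whose products the sort used.

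Between trNK-T and trNK-D, 26 of 102 tested genes from the list higher than in Scin-high cells were lower in trNK-T (25.49%, against 1.41% of all genes; median -1.19 log2, 101 of 102 negative). The list holds Cd74, H2-Aa and H2-Ab1, of antigen presentation, and Ctss, which were among the 26. From trNK-D to trNK-T, macrophage markers ran from 273 and 392 RPKM to 29.4 and 27.0, with 0 of 3 tested genes called lower. B cell markers ran from 761 and 554 to 203 and 175, with 2 of 4 called lower. Conventional NK markers ran from 855 and 621 to 401 and 309, with 2 of 4, and ILC1 markers from 58.7 and 68.3 to 19.4 and 15.3, with 1 of 2. The part of these markers was not tested. These 26 calls rested on the full set of 6 libraries, with 7 left without either trNK-V library, 6 and 4 without trNK-D library 1 or 2, and 16 and 0 without trNK-T library 1 or 2. Cd7 stood at 1060 and 823 in trNK-D against 234 and 96.0 in trNK-T, a difference of -2.52 log2 (SE 0.41, edgeR adjusted p = 0.0456). Of the lower list 28 of 51 genes passed the RPKM minimum, and 2 of them, Plac8 and Anxa3, were higher (7.143%, against 0.342%). Anxa3 passed the minimum through trNK-T alone. Neither was called without any 1 of the trNK-D and trNK-T libraries. P2ry14 was highest in trNK-D: 3.498 and 3.05 in trNK-V, 12.9 and 13.0 in trNK-D, 8.28 and 6.41 in trNK-T. It passed the RPKM minimum through trNK-D alone, so its levels are given as a description. Ccl1 was at 0 in trNK-V, at 7.01 and 50.8 in trNK-D and at 110 and 28.3 in trNK-T, so the last pair of subsets overlapped.

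**Figure D5:**
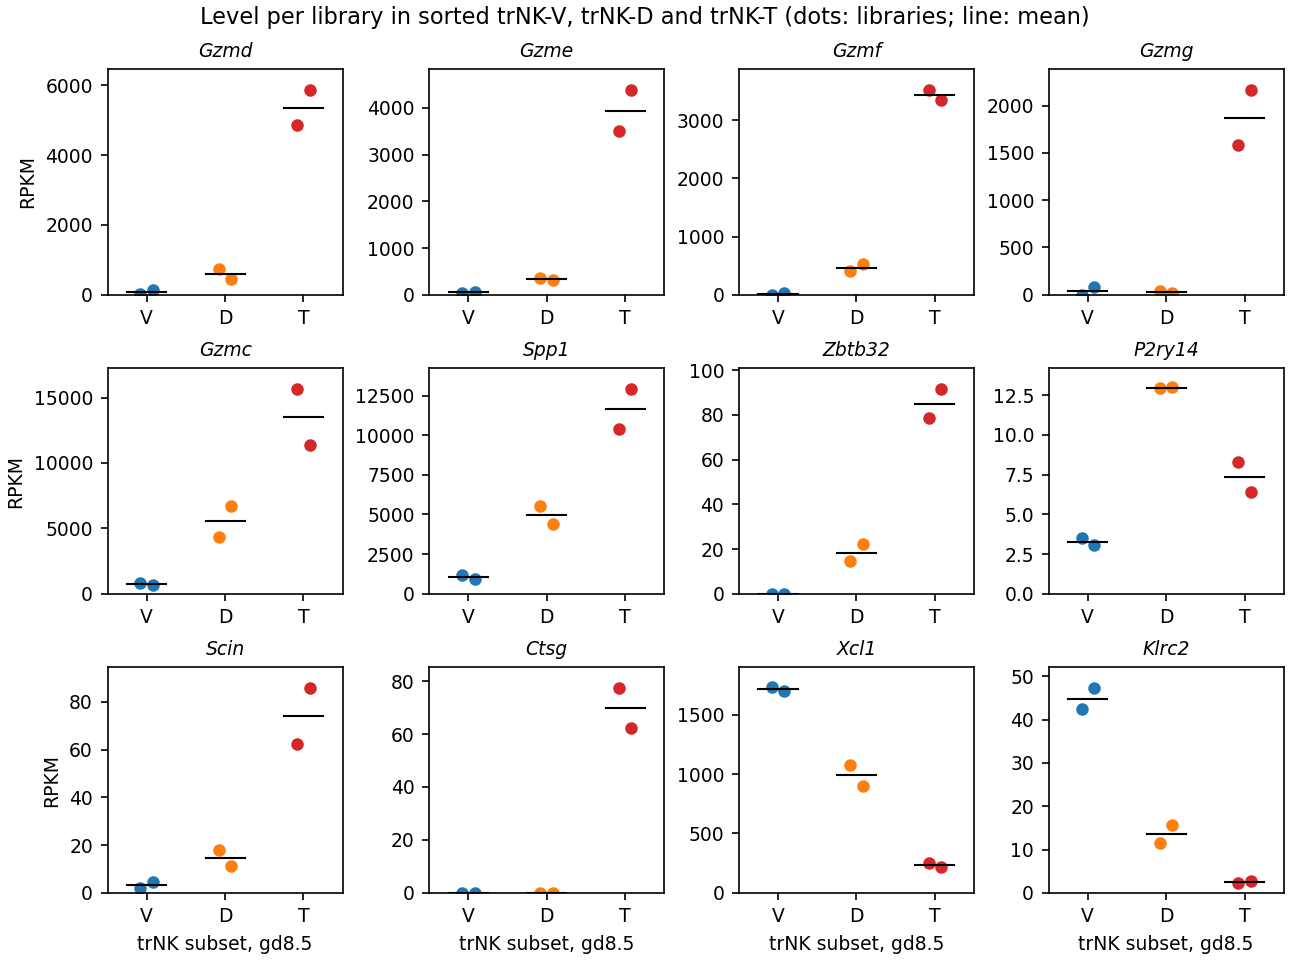
RPKM in each of the 2 libraries (dots) of trNK-V, trNK-D and trNK-T with their mean (line), for 12 genes, each on its own linear axis from 0. Gzme and Spp1 step up from V to D to T, P2ry14 is highest in D, Ctsg is seen in T alone among these 6 libraries, and Xcl1 steps down.

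Across gestation, few of the members' genes passed the test. Virgin library 1 held no count of Gzmd to Gzmg, while virgin library 2 held 280 RPKM of Gzmd and 303 of Gzme, beside 887 and 1670 of Gzmd at gd8.5. Virgin library 1 was counted over another gene table, of 55573 genes against 54446 for the other libraries, with other lengths for 1333 shared genes, and the part of this was not tested. Between gd8.5 and virgin, edgeR called 0 of 110 genes higher (0.0222% of all genes), 23 had an unadjusted p under 0.05, and DESeq2 called 4 and limma-voom 0. Of 62 genes from the lower list 2 were lower (0.4% of all genes): Nr4a1 fell by 2.27 log2 (SE 0.19, edgeR adjusted p = 0.0131), from 55.8 and 59.1 to 13.0 and 11.9 RPKM, and Pnrc1 fell by 1.92. Without virgin library 1, 3 of the higher list were called, and without virgin library 2, 46, with 23 of the lower list. Of the lower list 1 was called without either gd6.5 library and 0 without either gd8.5 library.

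In culture, 4 of 94 tested genes from the higher list were higher with IL-21 than without (4.255%, against 0.289% of all genes): Gzmb, Prf1, Spp1 and Gadd45g. Without control library 1 or 2 these were 0 and 1, and without either library with Stattic, 2. A fit that also matched libraries by their number called none of the higher list. From control to IL-21, ILC1 markers ran from 251 and 228 RPKM to 96.0 and 166 and T cell markers from 571 and 511.5 to 323 and 438. B cell markers ran from 144 and 273 to 49.98 and 123. The part of these markers was not tested. Gzmb stood at 2376 and 1756 RPKM in control and 20264 and 27117 with IL-21, a difference of 3.70 log2 (SE 0.35, edgeR adjusted p = 0.0136). Prf1 stood at 46.0 and 57.9 against 523 and 1038, a difference of 4.08 (SE 0.44, edgeR adjusted p = 0.0138). Spp1 stood at 2296 and 1298 against 31499 and 20121 and, with Stattic added, at 2912 and 5305. Gzmd stood at 0 and 57.2 in control, 302 and 517 with IL-21, and 298 and 95.9 with Stattic added, and its difference with IL-21 did not pass (a fitted 16.02-fold, SE 1.80 on the log2 scale, edgeR adjusted p = 0.566). Of 62 genes from the lower list edgeR called 0 lower (0% of all genes), and DESeq2 called 5 and limma-voom 0. Of the 62, 41 had a negative and 21 a positive difference. An unadjusted edgeR p under 0.05 was found for 13 with a negative and 6 with a positive difference. Xcl1 stood at 1203 and 317 in control and 697 and 91.9 with IL-21, overlapping. In the same list, Ccl4 stood at 30.9 and 12.3 in control and 7694 and 3559 with IL-21. Ccl5 stood at 1078 and 553 against 2066.5 and 1915.5, and Il21r, outside the list, at 18.0 and 9.25 against 33.8 and 63.1. Ccl4, Ccl5 and Il21r did not pass (edgeR adjusted p = 0.0863, 0.15 and 0.353).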

How the data were processed

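Single cells were captured on the BD Rhapsody system, and per the methods the authors aligned reads with the WTA pipeline to GRCm39. The deposited files hold UMI counts per gene and cell, 83499186 UMIs over 35237 genes after joining by cell number. Cells with a mitochondrial share of 10% or more were left out. The methods also give UMI limits of 200 and 2500, within which 345 members lie; these limits were not applied. Counts were summed per group of cells and scaled to CPM, with 0.5 UMI added to both sums of a ratio and exact Poisson intervals.

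Bulk files hold raw read counts per gene as deposited by the authors, 11862089 to 29537298 per library over 18 libraries. The submitters' processing notes name HISAT2 2.1.0, featureCounts and mm10, while the methods name RSEM. Lengths from the files gave RPKM. Genes above 10 RPKM in both libraries of any group were tested with edgeR 4.0.16 (quasi-likelihood, TMM, R 4.3.3), all groups of an experiment in one fit, with Benjamini-Hochberg adjustment over all tested genes, and called at adjusted p below 0.05 and fold above 2. DESeq2 1.42.0 and limma 3.58.1 (voom) were alternatives. Scripts were tested on simulated data.

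The genes named were the gate genes, genes of fixed lists, and the 10 highest and 10 lowest ratios of each cell comparison. Plac8, Mt1, Pnrc1, AA467197, Dixdc1, Gadd45g, Ctss, H2-Ab1, Gzmn and the 6 genes not called in trNK-T were named after their values were seen. The members and lists were chosen with earlier results of these data known. The time course and ATAC-seq files were not used here. Some items are not reported here.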

Additional observations from a re-analysis of the deposited data

How the results depend on the processing

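The share of cells in the gate, 17.6%, was 27.1% with at least 5 granzyme UMIs, 13.5% with at least 20, 12.9% with a level of at least 6000 CPM, 13% with no Scin, Epas1 or Ctsg UMI, 14.3% with under 2 mitosis UMIs, 7.95% within 200 to 2500 UMIs and 15.7% within 200 to 2500 genes. Against granzyme-low trNK, the 140 higher genes were 219 with median-ratio scaling, 299 from 20 CPM and 41 with granzyme-low cells under 2000 CPM. The 68 lower ones were 42 with at least 5 granzyme UMIs, 34 in cells of 2000 to 6000 UMIs and 139 with the reference by Ncr1, Klrb1c and Eomes. That reference still required Itga1. The 68 were 148 with the reference under 2000 CPM and 36 without cells that hold markers of other cells. Against Scin-high cells, the 115 higher genes were 208, 539, 218, 258 and 240 with at least 5 granzyme UMIs, cells of 2000 to 6000 UMIs, means over cells, from 20 CPM and without cells that hold other markers, and the 51 lower ones were 101, 89 and 78 with cells of 2000 to 6000 UMIs, from 20 CPM and without those cells. The haemoglobin genes reversed: Hba-a1, Hbb-bs and Hbb-bt over granzyme-low trNK were -2.18, -2.26 and -2.40 log2 with the reference by Ncr1, Klrb1c and Eomes, -0.30, -0.39 and -0.40 with that under 2000 CPM, and -0.02, -1.17 and -0.74 without cells that hold other markers; over Scin-high cells they were -2.35, -1.93 and -2.06 in group Q4, and Hba-a1 and Hbb-bs -0.08 and -0.05 with at least 20 granzyme UMIs. The cause was not tested. The settings on granzyme level in CPM, on group Q4, on a mitochondrial share of 1% to 10% and on cells that hold other markers were chosen after seeing the data. Over 103 single-gene ratios in cells, each under the alternatives that apply, 1612 values kept their side of 2-fold, 77 fell below it and the 14 given above reversed.

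In bulk, DESeq2, edgeR's own filter and no filter gave 32, 1 and 44 for the 6 genes higher in trNK-D than in trNK-V, 51, 4 and 61 for the 26 lower in trNK-T than in trNK-D (8 with only the groups compared), 10, 0 and 27 for the 2 higher there (4 by limma-voom), 11, 1 and 14 for the 2 lower at gd8.5, and 15, 0 and 16 for the 4 higher with IL-21 (2 with only the groups compared). For counts of 0, DESeq2 and no filter gave 7 and 13 for trNK-D lower (1 by limma-voom), 4 and 18 for gd8.5 higher, and 5 and 4 for IL-21 lower. Leaving out 1 library gave 0 to 6, 0 to 16 and 0 to 2 for the first 3 results, 47 to 83 higher and 36 to 61 lower for trNK-T against trNK-V, 0 to 46 higher and 0 to 23 lower for gd8.5, and 0 to 5 for IL-21; a lone library was assumed to vary like the other groups. The libraries share only a number (correlations of deviations -0.431 to 0.540), and the fit with the replicate block gave 2 for trNK-D lower, 6 and 39 for trNK-T higher and lower than trNK-D, and 0 for both gd8.5 lower and IL-21 higher. Over 158 single-gene results in bulk, each under the alternatives that apply, 1652 values kept their call, 397 lost it and none reversed.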
